A study of Bos taurus with 9 samples.

Results

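The most abundant lncRNAs of MAC-T cells are described here as the 49 lncRNA transcripts, of 2257 in the table, whose mean over the 9 libraries was above 10 FPKM (fragments per kilobase of transcript, scaled to the mapped fragments of the library). In all, 59 transcripts were above this limit. Of these, 10 were left out by the rule, namely 3 on unplaced scaffolds, 5 named after histone genes, TCONS_00039271 and ENSBTAG00000052382-AS1. The members were selected on their level, so the levels below are a description and no test is attached to them. The limit used the mean of all 9 libraries and not the difference between time points. The exclusions by name need not be free of that difference. TCONS_00039271 is reported by the study as highly expressed and as lower after exposure to LPS.

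The MAC-T line consists of immortalized epithelial cells of the bovine mammary gland, and all libraries stem from it. LPS, which Gram-negative bacteria carry in their outer membrane, was given at 50 ng/μL, and cells were collected before exposure (0 h) and at 6 and 12 h of exposure (6 hpi and 12 hpi), with 3 biological replicates at each of the 3 time points. No genotype or second agent separates the groups. The 3 time points were grown in separate plates, 1 for each, so in all 3 comparisons the plate cannot be told apart from the exposure, and each SD and p may describe the spread between wells of 1 plate. No untreated plate is described for 6 or 12 h, so the time in culture cannot be told apart from the exposure either. The table holds no mRNAs, and 0 of 20 mammary epithelial markers (such as KRT8 and CSN2) name a lncRNA in it, so the cell type could not be checked against its markers. The table gives FPKM without read counts. The study lists the mapped reads of each library, but transcript lengths were not used here, so FPKM were not turned into counts.

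Long non-coding RNAs (lncRNAs) are transcripts that are not translated into a protein. Some act in the nucleus on chromatin or on nearby genes, and others bind proteins or miRNAs in the cytoplasm. Most are far scarcer than mRNAs, and the few abundant ones include nuclear transcripts such as MALAT1 and NEAT1 in human and mouse cells. LPS is sensed through TLR4, which activates NF-kB and the transcription of inflammatory genes, lncRNAs among them.

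The 49 members came from 43 genes on 19 chromosomes. Chromosome 3 held 6 of them, and chromosomes 7, 10, 11, 19 and 23 held 4 each. By type, 18 overlapped an annotated gene on the same strand (sense overlapping), 15 were lncRNAs of the Ensembl annotation, 13 were intergenic and 3 were antisense. Annotated lncRNAs were 30.6% of the members and 9.3% of all 2257 lncRNAs. Antisense lncRNAs were 6.12% and 26.2%, whereas sense overlapping (36.7% and 37.4%) and intergenic lncRNAs (26.5% and 27.1%) held similar shares of both. The loci of the members were short, with a median span of 4282 bp from first to last base, introns included, against 9003 bp for all lncRNAs. The shortest was that of ENSBTAT00000081813 (705 bp) and the longest that of SIPA1L1-OT1 (240579 bp). FPKM is divided by transcript length, which is not the span of the locus.

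Few of the members carry a known name. Of 19 lncRNAs known to be abundant or studied in mammals (NEAT1, MALAT1, XIST, H19, NORAD and others), 0 were found by name in the table, and so were 0 of 52 snoRNA host genes and 0 of 11 structural RNAs. Transcripts listed by an Ensembl identifier alone could not be matched to a name, so these genes may be present under an identifier. A host gene with a symbol was given for 16 members, in 14 genes. These hosts include ENO3 (the muscle form of the glycolytic enzyme enolase), GPX8 (a peroxidase of the endoplasmic reticulum), TXN2 (mitochondrial thioredoxin), MTHFD2L (a mitochondrial enzyme of folate metabolism), SVBP (the partner of the vasohibins, which remove the last tyrosine of tubulin), UBL5 (a ubiquitin-like protein), PSMB11 (the proteasome subunit of the thymus) and SIPA1L1 (a GTPase-activating protein for Rap). In the RefSeq annotation (ARS-UCD2.0), 13 of the 14 hosts were found. MTHFD2L lies there between GRO1, a CXC chemokine gene, and EPGN, a ligand of the EGF receptor, and EEF1AKMT1 lies beside IL17D, a cytokine gene. Reads of a sense overlapping lncRNA and of its host can come from shared bases, and the sources used here do not say how they were divided.

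The levels covered a wide range within the members. Only 2 members had a mean above 100 FPKM, 6 had one above 50, and 25 lay between 10 and 20. The median member had 18.6 FPKM, and the median of all 2257 lncRNAs was 0.684. Summed over the members, FPKM was 1478 to 1687 in a library. This was 32.5% to 36.4% of the lncRNA FPKM of a library when rows on unplaced scaffolds were left out. With those rows, which differ strongly between libraries, the share was 31.9% to 35.7% in 7 libraries, 23.8% in 12 hpi replicate 1 and 7.23% in 0 h replicate 2. Taken over all 9 libraries, 30 members were above 10 FPKM in each of them, and the other 19 were at 10 FPKM or less in some. Within a single library, 40 to 46 members were above 10 FPKM.

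**Figure D1:**
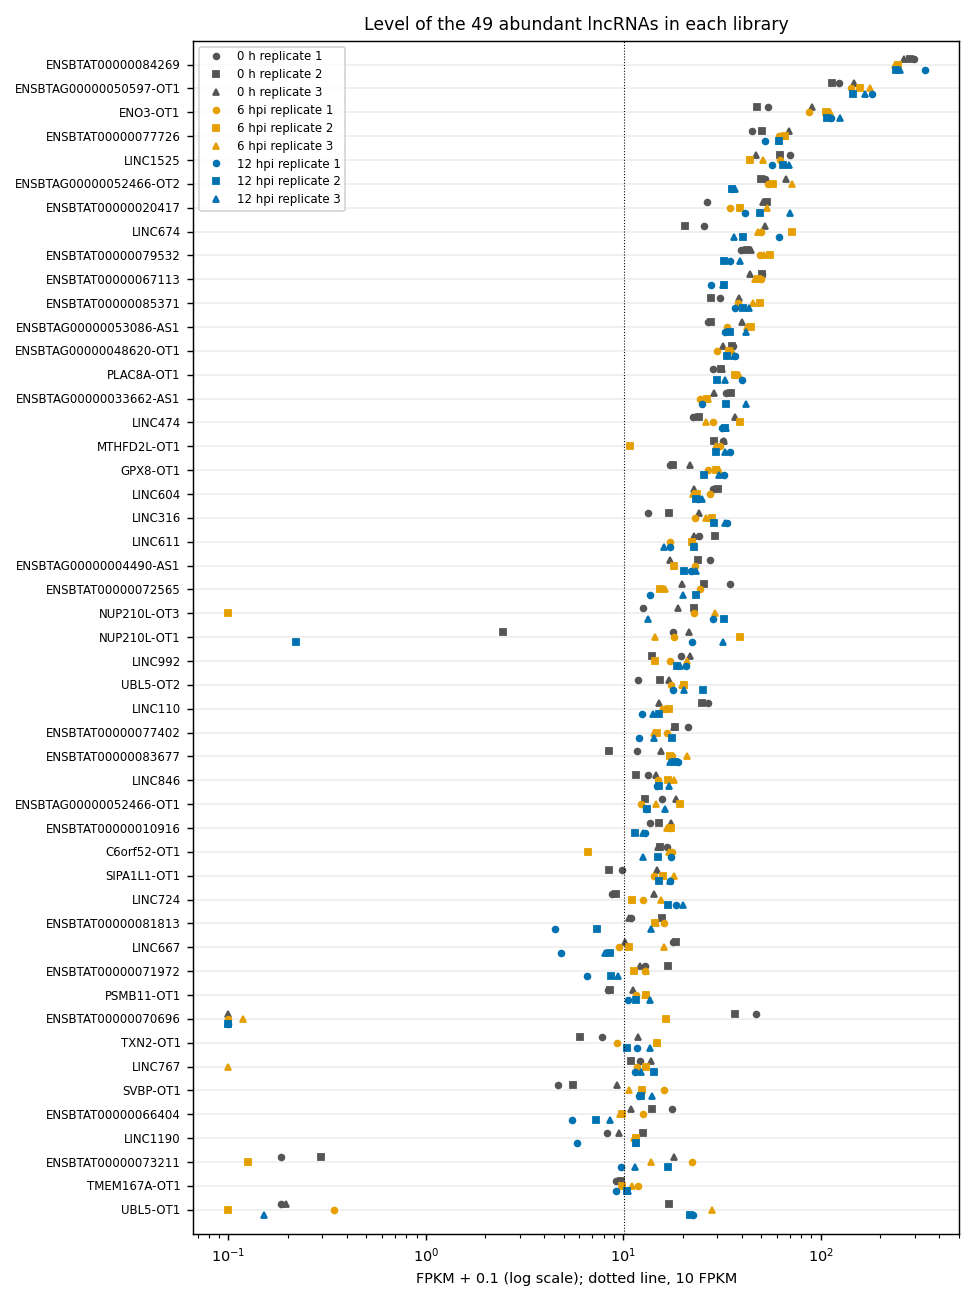
FPKM + 0.1 (log scale) of each abundant lncRNA (rows, by falling mean) in the 9 libraries, with colours for time points and symbols for replicates. The first row lies at 239.6 FPKM or more in every library, and the points near the left edge are the libraries in which NUP210L-OT3, NUP210L-OT1, ENSBTAT00000070696, LINC767, ENSBTAT00000073211 and UBL5-OT1 were listed under 0.5 FPKM.

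ENSBTAT00000084269, an annotated lncRNA on chromosome 11 (104128203 to 104131916, ARS-UCD1.2), stood at the head of the list. Its levels were 298, 283 and 265 FPKM at 0 h, 245, 247 and 239.6 at 6 hpi, and 336, 241 and 253 at 12 hpi. The 6 hpi values lay below all 0 h values, and the 12 hpi values overlapped both. It ranked first or second of all lncRNAs in every library. At 12 hpi its log2 fold change from 0 h was −0.04, with a 95% confidence interval of −0.37 to 0.29.

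ENSBTAG00000050597-OT1 (TCONS_00063316, chromosome 19, 39694163 to 39697797), a sense overlapping transcript of a gene without a symbol, came next. It had 125, 114 and 147 FPKM at 0 h, 142, 159 and 178 at 6 hpi, and 181, 146 and 168 at 12 hpi. The highest 0 h library lay within the range of both later time points. The third, ENO3-OT1 (TCONS_00062289, chromosome 19, 26447295 to 26450241), had 53.9, 47.7 and 90.2 FPKM at 0 h, 87.4, 106 and 111 at 6 hpi, and 113, 108 and 125 at 12 hpi. Here 0 h replicate 3 lay among the 6 hpi values, and all 12 hpi values were above all 0 h values.

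The next 5 by mean level lay close together. ENSBTAT00000077726 (chromosome 7) ran from 44.6 to 68.9 FPKM over the libraries, LINC1525 (chromosome 9) from 43.8 to 69.6, ENSBTAG00000052466-OT2 (chromosome 4) from 35.3 to 71.2, ENSBTAT00000020417 (chromosome 3) from 26.5 to 70.03 and LINC674 (chromosome 19) from 20.5 to 71.8. These ranges overlapped, and the order of the means (59.1, 58.4, 51, 46.6 and 45.2) does not separate them beyond the spread. ENSBTAT00000020417 is annotated at CDC42SE1, which encodes a small effector of the GTPase CDC42. ENSBTAT00000079532 and ENSBTAT00000067113, both of gene ENSBTAG00000054306 on chromosome 11, completed the first 10 at means of 43.2 and 42.4 FPKM. For the first 10 members that did not pass p under 0.05 at 12 hpi against 0 h, the log2 fold changes were 0.12 for ENSBTAT00000077726 (interval −0.29 to 0.52), 0.10 for LINC1525 (−0.34 to 0.55), 0.32 for ENSBTAT00000020417 (−0.39 to 1.03), 0.57 for LINC674 (−0.23 to 1.38) and −0.26 for ENSBTAT00000079532 (−0.58 to 0.06).

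At the lower edge of the selection, the last members were ENSBTAT00000073211 (10.2 FPKM), TMEM167A-OT1 (10.1) and UBL5-OT1 (10.01). The 3 transcripts next below the limit were ENSBTAT00000066373 (9.55), ENSBTAG00000005847-AS1 (9.48) and VTI1A-OT1 (9.29). TMEM167A-OT1 reached its mean at 9.09 to 11.9 FPKM in every library. UBL5-OT1 reached its own through 4 libraries at 17.1 to 28.2 FPKM, with 0 to 0.245 in the other 5.

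Most members varied little between replicates. They were chosen on their level, and the lncRNAs set beside them are mostly far scarcer, so the spread cannot be told apart from the level here. The pooled SD of log2(FPKM + 0.1) within time points had a median of 0.263 over the members and of 0.581 over all 1948 tested lncRNAs, and 43 members lay between 0.101 and 0.503. The smallest values were those of ENSBTAT00000067113 (0.101), ENSBTAG00000048620-OT1 (0.104), TMEM167A-OT1 (0.107), ENSBTAT00000079532 (0.107) and ENSBTAT00000010916 (0.119). ENSBTAG00000048620-OT1 (chromosome 11) had 35.7, 35.7 and 32 FPKM at 0 h, 29.7, 34.4 and 35.4 at 6 hpi, and 37, 33.7 and 36.6 at 12 hpi. The time points overlapped, and its log2 fold change at 12 hpi against 0 h was 0.05 (interval −0.27 to 0.37). TMEM167A-OT1, which overlaps a gene of the secretory pathway, had 9.13, 9.69 and 9.53 FPKM at 0 h, 11.9, 9.77 and 11 at 6 hpi, and 9.09, 10.4 and 10.5 at 12 hpi, with a log2 fold change of 0.08 at 12 hpi against 0 h (−0.29 to 0.44). The other 6 members had a pooled SD above 1. Of these, LINC767 owed its value to a single library, and the others were members of same-gene pairs.

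**Figure D2:**
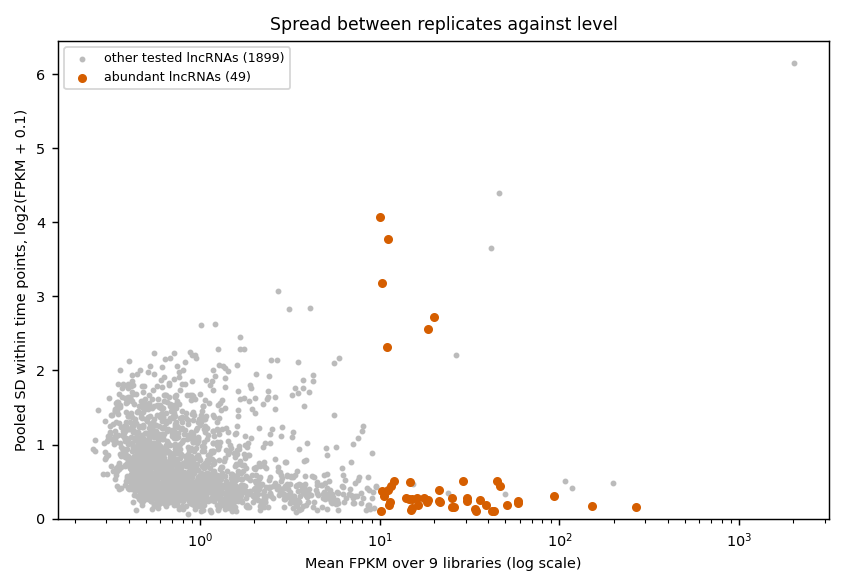
Pooled SD of log2(FPKM + 0.1) within time points (vertical) against mean FPKM over 9 libraries (horizontal, log scale) for the 49 abundant lncRNAs and the 1899 other tested lncRNAs. Of the members, 43 lie at or under 0.503 and 6 above 1.

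Time points were compared by limma on log2(FPKM + 0.1), fitted on the 1948 lncRNAs above 0.5 FPKM in at least 3 libraries. All 49 members passed this filter. Calls were made at the thresholds of the study, a log2 fold change beyond 1 in either direction and an unadjusted p under 0.05, and at a p adjusted by Benjamini-Hochberg over all tested lncRNAs. The study applied its thresholds to another test, that of Cuffdiff, so the calls here are not those of the study. At an adjusted p under 0.05, limma called 0 members, and 0 of all tested lncRNAs (background 0%), in each of the 3 comparisons. The smallest adjusted p of a member was 0.337 at 6 hpi against 0 h, 0.157 at 12 hpi against 0 h and 0.332 at 12 against 6 hpi. Members described as higher or lower below are therefore those with an unadjusted p under 0.05, and none of them passed the adjustment.

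At 6 hpi against 0 h, 1 member passed the thresholds of the study, where the background over all tested lncRNAs was 6.06%. At 12 hpi against 0 h, 3 members did (background 9.6%), and at 12 against 6 hpi 0 did (background 5.39%), with 8 members at an unadjusted p under 0.05. These shares of the members, 2.04%, 6.12% and 0%, were all under the background. The choice of members bears on these counts, because 13 members had a mean of 10 FPKM or less at 1 time point or more and reached the limit through the others. These include SVBP-OT1, with a mean of 6.44 FPKM at 0 h, LINC667, with 7.06 at 12 hpi against 15.5 at 0 h, and ENSBTAT00000070696, listed at 0 at 12 hpi with 27.9 at 0 h, which are the 3 members past the thresholds at 12 hpi. By unadjusted p alone, 9 members (18.4%) were higher and 0 were lower at 6 hpi than at 0 h, against backgrounds of 6.01% and 3.8%. At 12 hpi, 9 (18.4%) were higher and 8 (16.3%) lower than at 0 h, against 8.88% and 5.29%. Between 6 and 12 hpi, 0 were higher and 8 (16.3%) lower, against 4.57% and 3.49%. The choice of members bears on this count too. Among the 8, ENSBTAT00000081813 (8.49 FPKM), LINC667 (7.06), ENSBTAT00000071972 (8.11) and ENSBTAT00000066404 (7.05) had a mean under 10 at 12 hpi. The rest of the 8 had means above 10 FPKM at every time point. The comparisons with 0 h share the 0 h libraries.

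The differences of the members were small beside those of all tested lncRNAs, which are mostly far scarcer. The median absolute log2 fold change was 0.316, 0.393 and 0.188 over the members in the 3 comparisons and 0.438, 0.514 and 0.402 over all tested lncRNAs, and the median standard error was 0.22 and 0.47. The signed median was 0.18, 0.08 and −0.04 for the members, beside 0.05, 0.11 and 0.07 for all. Groups did not overlap for 12 members at 6 hpi against 0 h (24.5%, background 16.6%), for 18 at 12 hpi against 0 h (36.7%, background 22.6%) and for 12 at 12 against 6 hpi (24.5%, background 15.1%).

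Centring each library on its median changed the balance of calls. It moved every log2 fold change at 12 hpi against 0 h by −0.13, for members and other lncRNAs alike. The median over all tested lncRNAs went from 0.11 to −0.02. The members then split into 5 higher and 13 lower instead of 9 and 8. At 6 hpi against 0 h the split became 4 higher and 1 lower, also with quantile normalization, instead of 9 and 0. With quantile normalization, 1 member was higher and 7 lower at 12 against 6 hpi. The shares over all tested lncRNAs are not given for these settings, so these splits have no background beside them.

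**Figure D3:**
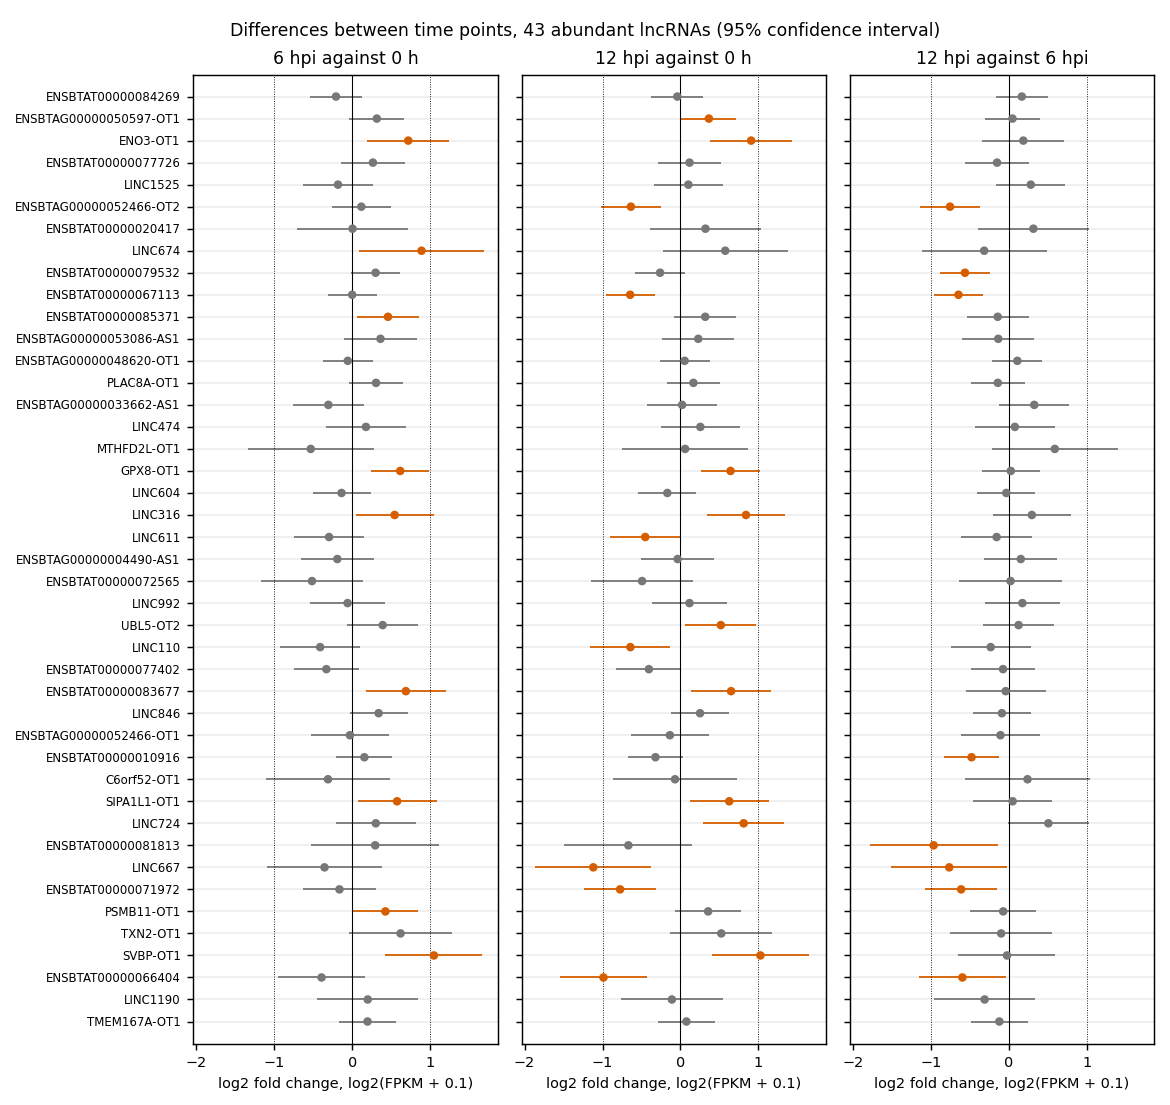
Log2 fold change of log2(FPKM + 0.1) with its 95% confidence interval (limma) for 43 abundant lncRNAs in the 3 comparisons, in orange at an unadjusted p under 0.05; dotted lines mark the threshold of 1. Orange points lie to the right only at 6 hpi against 0 h, on both sides at 12 hpi against 0 h and to the left only at 12 against 6 hpi; the 6 members with a pooled SD above 1 are not drawn.

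The 0 h libraries were not alike for these lncRNAs. For 37 of the 49 members (75.5%), 0 h replicate 3 lay outside 0 h replicates 1 and 2 on the side of the 12 hpi mean. The same held for 0 h replicate 1 in 4 members and for 0 h replicate 2 in 8, and over all tested lncRNAs the shares were 45.4% for replicate 3, 26.3% for replicate 1 and 27.7% for replicate 2. This count was chosen after the values had been seen. Leaving out 0 h replicate 3 raised the calls over the whole table. At an adjusted p under 0.05, limma then called 11 of all tested lncRNAs at 6 hpi and 31 at 12 hpi against 0 h, instead of 0. The members past the thresholds became 3 at 6 hpi and 8 at 12 hpi against 0 h, and the share of all tested lncRNAs is not given for this count. For most members 0 h replicate 3 lay on the side of the 12 hpi mean, so leaving it out widens their difference between 0 h and 12 hpi by construction. The calls made without it are therefore no separate evidence of a change. Of the members, limma called 2 and 6 at an adjusted p under 0.05. Those were ENO3-OT1 (log2 fold change 1.00, adjusted p = 0.0334) and SVBP-OT1 (1.34, 0.0491) at 6 hpi, and ENO3-OT1 (1.18, 0.00848), SVBP-OT1 (1.32, 0.0267), LINC316 (1.07, 0.0267), LINC724 (1.03, 0.0379), LINC110 (−0.90, 0.0294) and ENSBTAT00000067113 (−0.71, 0.037) at 12 hpi. Without 0 h replicates 1 and 2 together, a setting also added after the data had been seen and in which the remaining 0 h library is assumed to vary like the other groups, 0 members passed the thresholds and 0 were higher than at 0 h by unadjusted p at either time. The share of mapped reads that the study lists for each library was lowest in these same libraries, 0 h replicates 1 and 2, and its part in the split was not tested.

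SVBP-OT1 (TCONS_00110578, chromosome 3, 103432178 to 103439244) was the member past the thresholds in both comparisons with 0 h. It had 4.57, 5.5 and 9.25 FPKM at 0 h, 16, 12.4 and 10.6 at 6 hpi, and 11.9, 12.2 and 13.8 at 12 hpi. All LPS libraries were above all 0 h libraries. The log2 fold change was 1.05 ± 0.28 (SE) at 6 hpi (limma, adjusted p = 0.337) and 1.03 ± 0.28 at 12 hpi (adjusted p = 0.19). Its gene holds 6 lncRNA transcripts, of which it made up 41.6% of the FPKM. Summed over them, the change was 0.40 at 6 hpi (adjusted p = 0.489) and 0.54 at 12 hpi (adjusted p = 0.206). The change of SVBP-OT1 itself came under 1 without 0 h replicate 1 (0.84 and 0.82), 0 h replicate 2 (0.97 and 0.95), 6 hpi replicate 1 (0.89 at 6 hpi) or 12 hpi replicate 3 (0.96 at 12 hpi), and without 0 h replicates 1 and 2 together it was 0.47 and 0.44 and did not pass.

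ENO3-OT1, whose values are given above, was higher by 0.72 ± 0.23 on the log2 scale at 6 hpi (adjusted p = 0.432) and by 0.91 ± 0.23 at 12 hpi (adjusted p = 0.188). Leaving out 0 h replicate 1 (0.62) or 2 (0.54) ended the call at 6 hpi, where quantile normalization gave 0.21, and quantile normalization brought the change at 12 hpi to 0.05. Without both of these libraries it was 0.17 and 0.35. GPX8-OT1 (TCONS_00074452, chromosome 20, 23951563 to 23956371) had 17.2, 17.7 and 21.7 FPKM at 0 h, 26.7, 29.4 and 30.4 at 6 hpi, and 32.5, 25.5 and 30.6 at 12 hpi. All LPS libraries were above all 0 h libraries, also above replicate 3. Its log2 fold change was 0.62 ± 0.17 at 6 hpi (adjusted p = 0.337) and 0.64 ± 0.17 at 12 hpi (adjusted p = 0.188), and no single library left out ended either call. Without 0 h replicates 1 and 2 the changes were 0.41 and 0.44.

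LINC316 and LINC724, both intergenic, were highest at 12 hpi. LINC316 (chromosome 13, 77863301 to 77867198) had 13.3, 17 and 24 FPKM at 0 h, 22.9, 28.1 and 26.2 at 6 hpi, and 33.6, 28.6 and 32.6 at 12 hpi. The 12 hpi values lay above all others, with a log2 fold change from 0 h of 0.84 ± 0.22 (adjusted p = 0.19), and 0.54 ± 0.22 at 6 hpi (adjusted p = 0.509). LINC724 (chromosome 2, 126660987 to 126664622) had 8.66, 9.15 and 14.2 FPKM at 0 h, 12.6, 11 and 15.4 at 6 hpi, and 18.4, 16.9 and 19.9 at 12 hpi. Its 12 hpi values were again above all others, by 0.81 ± 0.23 from 0 h (adjusted p = 0.202), while 6 hpi overlapped 0 h and the difference of 0.51 between 6 and 12 hpi did not pass (adjusted p = 0.613). The 6 hpi call of LINC316 was lost without 0 h replicate 1 or 2, 6 hpi replicate 2 or 3 or 12 hpi replicate 3 (0.34 to 0.54), and the 12 hpi changes were 0.39 for LINC316 and 0.37 for LINC724 without 0 h replicates 1 and 2. Centring, quantile normalization and a fit with no trend also ended the 6 hpi call of LINC316.

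ENSBTAT00000083677 and SIPA1L1-OT1 were higher at both times. ENSBTAT00000083677 (chromosome 5) had 11.7, 8.36 and 15.4 FPKM at 0 h, 17.5, 17.2 and 21.04 at 6 hpi, and 18.9, 18.2 and 17.1 at 12 hpi, without overlap. The log2 fold changes were 0.69 ± 0.23 (adjusted p = 0.436) and 0.65 ± 0.23 (adjusted p = 0.254). SIPA1L1-OT1 (chromosome 10) had 9.72, 8.4 and 14.7 FPKM at 0 h, 14.2, 15.8 and 18 at 6 hpi, and 17.1, 15.2 and 17.2 at 12 hpi. Its 0 h replicate 3 lay above the lowest 6 hpi value and below all 12 hpi values. The changes were 0.58 ± 0.22 (adjusted p = 0.509) and 0.63 ± 0.22 (adjusted p = 0.267). Both lost their calls without 0 h replicate 2, where the 12 hpi change was 0.42 for the former and 0.46 for the latter. The 12 hpi calls of both and the 6 hpi call of SIPA1L1-OT1 were lost with centred values and with no trend. The 6 hpi call of ENSBTAT00000083677 was also lost without 6 hpi replicate 3 (0.60). That of SIPA1L1-OT1 was lost without 0 h replicate 1 or 6 hpi replicate 2 or 3 (0.49 to 0.58), and its 12 hpi call without 0 h replicate 1 (0.56) or 12 hpi replicate 3 (0.59).

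The other calls above 0 h each concerned 1 time point. LINC674 (0.89 at 6 hpi, adjusted p = 0.509), ENSBTAT00000085371 (0.46 at 6 hpi, adjusted p = 0.509), PSMB11-OT1 (0.43 at 6 hpi, adjusted p = 0.509), UBL5-OT2 (0.52 at 12 hpi, adjusted p = 0.294) and ENSBTAG00000050597-OT1 (0.36 at 12 hpi, adjusted p = 0.345) were called with all libraries. Each lost the call with centred values, with no trend, and when 1 of several libraries was left out. For LINC674 these were 0 h replicates 1 and 2 and 6 hpi replicates 1 and 2 (0.61 to 0.97), for ENSBTAT00000085371 0 h replicates 1 and 2 and 6 hpi replicates 2 and 3 (0.36 to 0.44), and for UBL5-OT2 0 h replicate 1 and 12 hpi replicates 2 and 3 (0.37 to 0.54). For PSMB11-OT1 they were all but 0 h replicate 3 and 12 hpi replicate 1 (0.35 to 0.48), and for ENSBTAG00000050597-OT1 all but 0 h replicate 3 and 12 hpi replicate 2 (0.28 to 0.36), whose change quantile normalization turned to −0.35. In PSMB11-OT1 the 6 hpi libraries (11.6, 13 and 12.8 FPKM) were above the 0 h libraries (8.34, 8.47 and 11.1), and in UBL5-OT2 the 12 hpi libraries (17.7, 25.4 and 20.4) were above those of 0 h (11.9, 15.4 and 17). In the remaining 3, 0 h replicate 3 overlapped the LPS libraries. Among the members lower at 6 hpi than at 0 h, the smallest p were those of LINC110 (−0.41, adjusted p = 0.607), ENSBTAT00000077402 (−0.33, adjusted p = 0.607) and ENSBTAT00000072565 (−0.52, adjusted p = 0.608).

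For the 8 members lower at 12 than at 6 hpi, no 0 h library enters the difference, only the estimate of the spread. ENSBTAG00000052466-OT2 (TCONS_00117107, chromosome 4, 76611350 to 76614443) had 52.1, 49.97 and 66.9 FPKM at 0 h, 54.3, 57.3 and 71.2 at 6 hpi, and 35.3, 35.4 and 36.9 at 12 hpi. Its 12 hpi values were close together and lay below all others. The log2 fold change was −0.75 ± 0.17 from 6 hpi (95% confidence interval −1.13 to −0.37, adjusted p = 0.332) and −0.64 ± 0.17 from 0 h (adjusted p = 0.19).

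ENSBTAT00000067113 (chromosome 11, 916248 to 922067) had 50.3, 50.6 and 43.8 FPKM at 0 h, 49.9, 48 and 46.4 at 6 hpi, and 27.9, 32.4 and 32.1 at 12 hpi. The values of 0 h and 6 hpi overlapped, and those of 12 hpi lay below both. The log2 fold change was −0.64 ± 0.14 from 6 hpi (adjusted p = 0.332) and −0.65 ± 0.14 from 0 h (adjusted p = 0.157). ENSBTAT00000079532 (858769 to 921076), the other transcript of its gene, had 39.6, 42.5 and 44.6 FPKM at 0 h, 49.3, 55.4 and 51.3 at 6 hpi, and 34.5, 32.3 and 39.1 at 12 hpi. The 3 time points did not overlap, with 6 hpi the highest. It was lower at 12 than at 6 hpi by −0.56 ± 0.14 (adjusted p = 0.419). The calls of ENSBTAG00000052466-OT2 and ENSBTAT00000067113 at 12 hpi against 6 hpi and 0 h, and that of ENSBTAT00000079532 against 6 hpi, were kept under every alternative run for them, each library left out and 0 h replicates 1 and 2 left out together among these.

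ENSBTAT00000010916 (chromosome 12, 35796991 to 35817783) is annotated at EEF1AKMT1, the gene of a methyltransferase that modifies the elongation factor eEF1A. It had 13.6, 15.1 and 17.5 FPKM at 0 h, 17.1, 17.4 and 16.7 at 6 hpi, and 12.9, 11.4 and 12.5 at 12 hpi. The 12 hpi libraries lay below all others, by −0.48 ± 0.16 from 6 hpi (adjusted p = 0.545), and this call was lost only when the fit had no trend. ENSBTAT00000071972 (chromosome 13, 77375051 to 77378276) had 12.9, 16.8 and 12.1 FPKM at 0 h, 12.8, 11.3 and 12.9 at 6 hpi, and 6.43, 8.61 and 9.28 at 12 hpi, again below all others. The changes were −0.61 ± 0.21 from 6 hpi (adjusted p = 0.545; −0.45 and not past the threshold without 12 hpi replicate 1) and −0.77 ± 0.21 from 0 h (adjusted p = 0.19). Summed over the 2 lncRNA transcripts of its gene, the change from 0 h was −0.57 (adjusted p = 0.316) and no longer a call. The call from 6 hpi was also lost when the fit had no trend. ENSBTAT00000066404 (chromosome 28, 45651501 to 45662187) had 17.6, 13.9 and 10.8 FPKM at 0 h, 12.5, 9.79 and 9.52 at 6 hpi, and 5.44, 7.22 and 8.48 at 12 hpi. Its 12 hpi values were below all others and those of 6 hpi overlapped 0 h. It was lower by −0.99 ± 0.25 from 0 h (adjusted p = 0.188) and by −0.59 ± 0.25 from 6 hpi (adjusted p = 0.602), the latter call being lost without 0 h replicate 2, 6 hpi replicate 1 or 2 or 12 hpi replicate 1 or 2 (−0.64 to −0.42). That call was also lost with no trend.

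**Figure D4:**
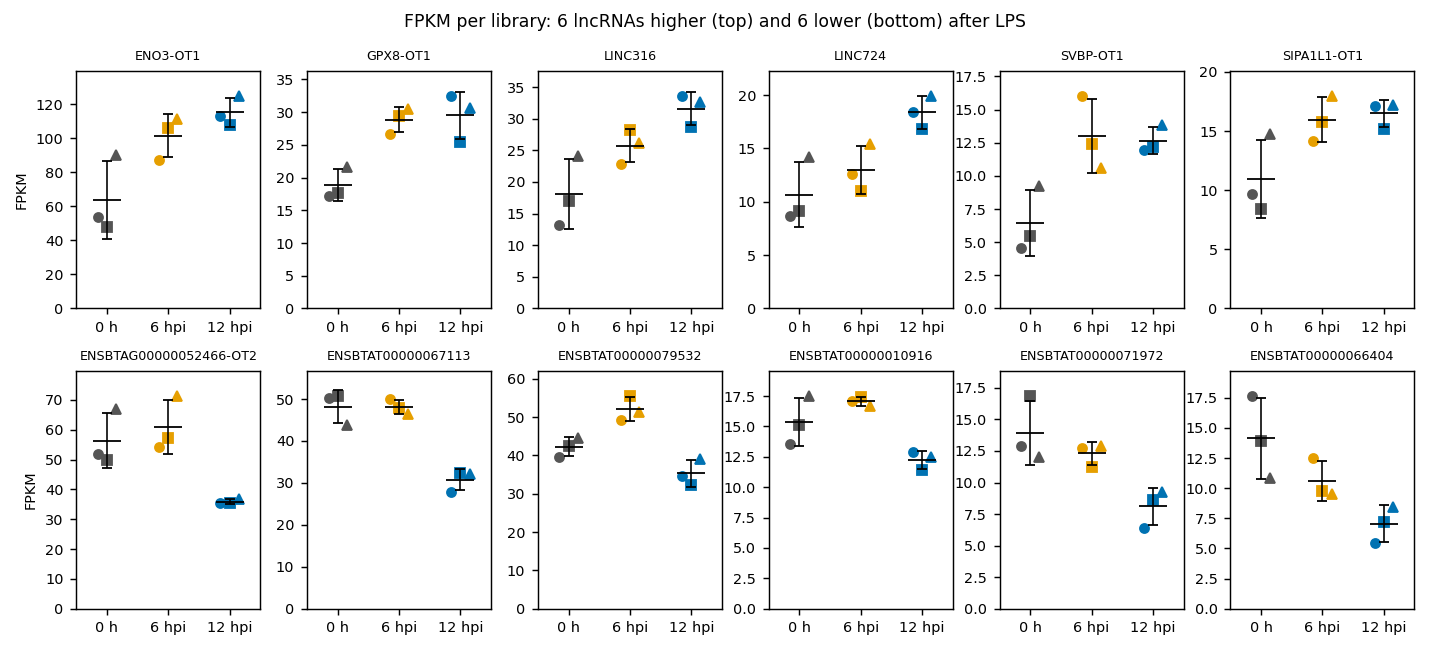
FPKM per library at 0 h, 6 hpi and 12 hpi (symbols for replicates 1, 2 and 3; dash and bar, mean ± SD, n = 3) of 6 lncRNAs with an unadjusted p under 0.05 above 0 h (top) and 6 below 0 h or 6 hpi (bottom). In the top row 0 h replicate 3 (triangle) is the highest of its group, and in the bottom row the 12 hpi libraries lie below those of 6 hpi.

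Of the remaining lower members, ENSBTAT00000081813 (chromosome 16, 55234390 to 55235094) had 10.9, 15.7 and 10.6 FPKM at 0 h, 16.1, 14.4 and 14.6 at 6 hpi, and 4.45, 7.26 and 13.8 at 12 hpi. Its 12 hpi values were far apart and lay below those of 6 hpi, by −0.96 ± 0.36 (adjusted p = 0.591), a call lost without 6 hpi replicate 1 or 3 or 12 hpi replicate 1 or 2 (−0.98 to −0.58). LINC110 (chromosome 10) had 26.9, 25.1 and 15.1 FPKM at 0 h, 16.2, 16.9 and 15.7 at 6 hpi, and 12.4, 15.2 and 14.1 at 12 hpi. Here 0 h replicate 3 lay among the LPS libraries, and the change at 12 hpi against 0 h was −0.64 ± 0.23 (adjusted p = 0.262). It did not pass without 0 h replicate 1 or 2 or 12 hpi replicate 1 (−0.57 to −0.49), and was −0.13 without both of those 0 h libraries. A fit with no trend ended the call as well. LINC611 was lower by −0.45 ± 0.20 at 12 hpi than at 0 h (adjusted p = 0.353), and leaving out any library but 0 h replicate 3, 6 hpi replicate 1 and 12 hpi replicate 2 ended this call (−0.48 to −0.35). Summed over the 2 lncRNA transcripts of its locus, the change of LINC611 was −0.11 (adjusted p = 0.714). Its call was also lost with no trend, with no filter and with a pseudocount of 0.5 or 1. In the direction up from 6 to 12 hpi, the smallest p were those of LINC724 (above), MTHFD2L-OT1 (0.59, adjusted p = 0.693) and ENSBTAG00000033662-AS1 (0.33, adjusted p = 0.693).

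The members include 6 pairs of transcripts of the same gene, 12 members in all. In some of the pairs the proportion of the 2 transcripts differed strongly between libraries. The part that the division of reads between overlapping transcripts has in this was not tested. The gene ENSBTAG00000052980 (chromosome 23) is the clearest. ENSBTAT00000070696 (7284515 to 7286967) had 47 and 36.8 FPKM in 0 h replicates 1 and 2 and 16.4 in 6 hpi replicate 2, and was listed at 0 to 0.0187 in the other 6 libraries. ENSBTAT00000073211 (7284962 to 7286967) had 0.0857, 0.196 and 0.0261 FPKM in those 3 libraries and 9.63 to 22.2 in the other 6. In no library were both above 1 FPKM. ENSBTAT00000070696 passed the thresholds at 12 hpi against 0 h as lower (adjusted p = 0.352), but it is listed at 0 in all 12 hpi libraries and in 0 h replicate 3, so no fold is given, and the call was lost without any library but 0 h replicate 3 and 6 hpi replicate 2. The sum of both was 47.1, 37 and 18 FPKM at 0 h, 22.2, 16.4 and 13.8 at 6 hpi, and 9.63, 16.7 and 11.4 at 12 hpi. All 12 hpi sums lay below all 0 h sums, with a log2 fold change of −1.36 ± 0.35 (limma on FPKM summed per gene, adjusted p = 0.113), and at 6 hpi it was −0.88 (adjusted p = 0.406).

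The NUP210L pair (chromosome 3, 16446033 to 16449500) was strongly uneven in some libraries only, and in the others both transcripts were above 10 FPKM. NUP210L is a nucleoporin-like gene. NUP210L-OT3 had 12.5, 22.9 and 18.9 FPKM at 0 h, 22.8, 0 and 29.1 at 6 hpi, and 28.6, 32.4 and 13.3 at 12 hpi. NUP210L-OT1 had 17.7, 2.36 and 21.4, then 18, 39.1 and 14.4, then 22.2, 0.121 and 32.03. Where one was near 0 the other was high: in 6 hpi replicate 2 OT3 was listed at 0, and in 12 hpi replicate 2 it made up 99.6% of the sum. The pooled SD was 2.71 and 2.56 for the transcripts and 0.278 for their sum, which lay between 25.2 and 50.8 FPKM. Summed per gene, the change was 0.39 at 6 hpi (adjusted p = 0.55) and 0.44 at 12 hpi (adjusted p = 0.328).

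UBL5-OT1 and UBL5-OT2 are listed with the same first and last base (chromosome 7, 14419218 to 14422227). UBL5-OT2 had 11.9 to 25.4 FPKM in all libraries. UBL5-OT1 had 17.1 FPKM in 0 h replicate 2, 28.2 in 6 hpi replicate 3 and 22.5 and 21.8 in 12 hpi replicates 1 and 2, and at most 0.245 elsewhere. Here the presence of the one did not go with a loss of the other, and the sum varied from 11.9 to 48 FPKM, with a pooled SD of 0.717. Both states occurred at every time point. Summed per gene, the change at 12 hpi against 0 h was 0.85 (adjusted p = 0.394), and the call of UBL5-OT2 was not one of the sum.

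In the other 3 pairs both transcripts were present in every library. ENSBTAG00000052466-OT2 held 69.5% to 82.9% of its pair with OT1, which has the same first and last base and itself ran from 12.3 to 19.3 FPKM. The sum was 71.9 ± 11.8 FPKM at 0 h (SD, n = 3), then 76.4 ± 9.62 at 6 hpi and 50.03 ± 2.67 at 12 hpi, lower at 12 than at 6 hpi by −0.60 (adjusted p = 0.382). The pair of ENSBTAG00000054306 shared its sum almost evenly, ENSBTAT00000079532 holding 44.1% to 55.3%. This sum was 90.5 ± 2.45 FPKM at 0 h, 100.1 ± 2.91 at 6 hpi and 66.1 ± 4.58 at 12 hpi, with a pooled SD of 0.0657. The 12 hpi sums (62.4, 64.6 and 71.2 FPKM) lay below all others. Summed per gene, the change was −0.60 ± 0.12 from 6 hpi (adjusted p = 0.306) and −0.45 ± 0.12 from 0 h (adjusted p = 0.113).

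LINC674 and LINC667 (chromosome 19, both starting at 33209556) belong to a locus with 9 lncRNA transcripts. LINC674 had 25.5, 20.5 and 52.2 FPKM at 0 h, 50.1, 71.8 and 48.4 at 6 hpi, and 61.7, 40.4 and 36.3 at 12 hpi. LINC667 had 17.8, 18.5 and 10.2, then 9.38, 10.6 and 16.1, then 4.75, 8.45 and 7.96. In 0 h replicates 1 and 2 LINC674 held 58.9% and 52.5% of the pair, and in the other 7 libraries, 0 h replicate 3 among them, 75.1% to 92.8%. LINC667 passed the thresholds at 12 hpi against 0 h, by −1.12 ± 0.33 (adjusted p = 0.213), with all 12 hpi values below those of 0 h, and was lower at 12 than at 6 hpi by −0.76 (adjusted p = 0.609). The change from 0 h came under 1 in size without 0 h replicate 1 or 2 or 12 hpi replicate 1 (−0.86 at the least), and without 0 h replicates 1 and 2 together it was −0.57 and did not pass. The call from 6 hpi was lost without any of 0 h replicates 1 and 2, 6 hpi replicates 2 and 3 and 12 hpi replicates 1 and 3 (−0.87 to −0.50). Quantile normalization, no trend and a pseudocount of 1 also ended it. Summed over the 9 transcripts the locus was not lower: its change at 12 hpi against 0 h was 0.25 (adjusted p = 0.599), and at 6 hpi 0.59 (adjusted p = 0.406).

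**Figure D5:**
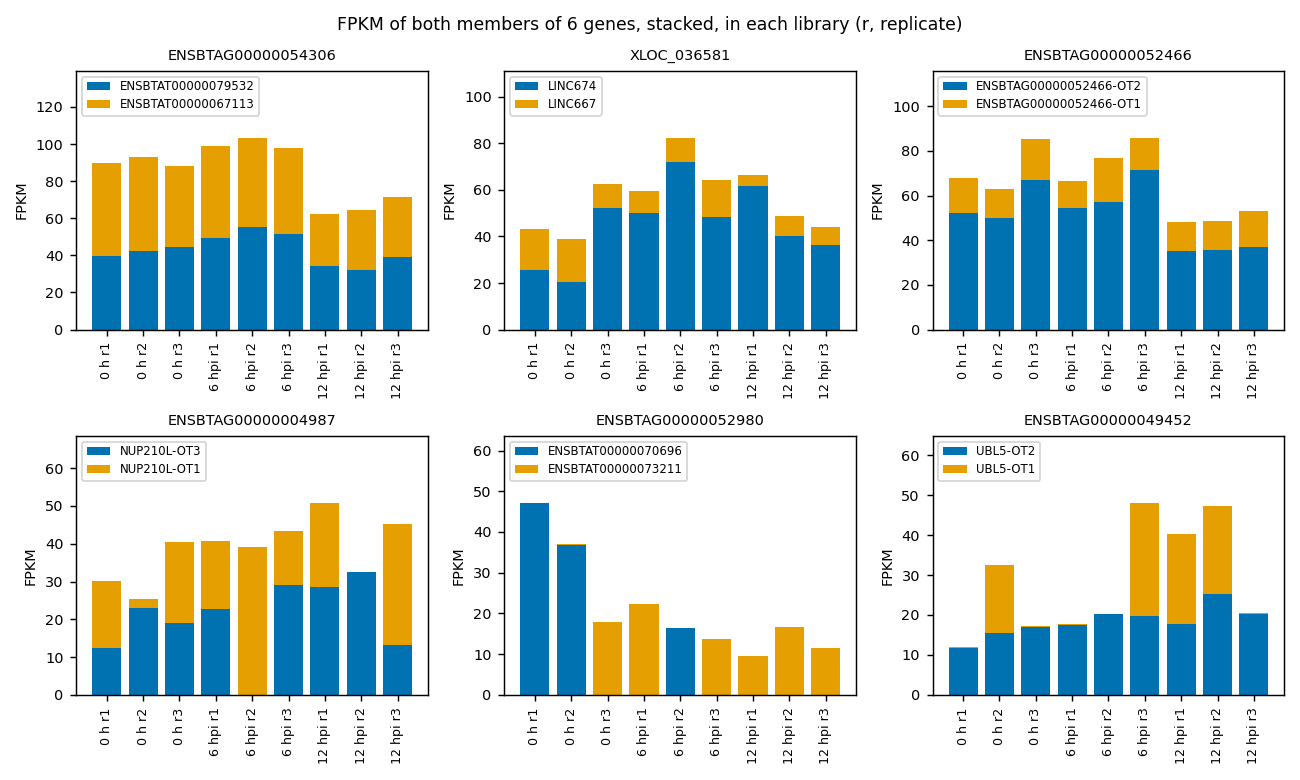
FPKM (vertical) of the 2 members of 6 genes, stacked, in each of the 9 libraries (r, replicate). In ENSBTAG00000052980 a library holds only one of the pair at a visible level, in ENSBTAG00000049452 UBL5-OT1 is visible in 4 libraries, and in ENSBTAG00000054306 both are present in every library and the 12 hpi sums are the lowest.

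A few members were far lower in a single library than in the others. LINC767 (chromosome 20) was listed at 0 in 6 hpi replicate 3 and had 10.9 to 14.2 FPKM in the other 8. MTHFD2L-OT1 had 10.7 FPKM in 6 hpi replicate 2 and 28.8 to 34.8 elsewhere, and C6orf52-OT1 had 6.52 in that library and 12.5 to 17.7 elsewhere. In 6 hpi replicate 3, LINC769 and LINC768 of the gene of LINC767 had 10.3 and 5.35 FPKM, and the gene summed to 15.6. In 6 hpi replicate 2, C6orf52-OT4 had 10.04 FPKM, and its gene summed to 18.1. Summed over the transcripts of the gene, the log2 fold change at 6 hpi against 0 h was 0.21 for LINC767 (adjusted p = 0.652) and 0.08 for C6orf52-OT1 (adjusted p = 0.882). By the ratio of the highest to the median library, UBL5-OT1 (115), NUP210L-OT1 (2.17), ENSBTAT00000073211 (1.94), LINC667 (1.82) and ENSBTAT00000066404 (1.80) stood highest. ENSBTAT00000070696 has no such ratio, its median being listed at 0.

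The other 26 members had an unadjusted p of 0.05 or more in every comparison. Among them were the 3 antisense lncRNAs, ENSBTAG00000053086-AS1 (26.8 to 44.4 FPKM), ENSBTAG00000033662-AS1 (24.5 to 41.9) and ENSBTAG00000004490-AS1 (17.1 to 27.6). The same held for PLAC8A-OT1 (28.3 to 39.7 FPKM), LINC474 (22.5 to 38.8), LINC604 (22.5 to 30.3), LINC992 (13.9 to 21.6), LINC846 (11.6 to 18.1), TXN2-OT1 (5.98 to 14.8) and LINC1190 (5.75 to 12.5), and for ENSBTAT00000072565 (13.6 to 34.9) and ENSBTAT00000077402 (12 to 21.2). PLAC8A-OT1 had 37.2, 36.6 and 38.4 FPKM at 6 hpi, above all 0 h values (28.3, 31.1 and 31.5), and LINC846 was above 0 h at both times without overlap. These differences, 0.31 and 0.34 at 6 hpi, had adjusted p-values of 0.555 and 0.549. In the other direction, ENSBTAT00000077402 was below 0 h at both times without overlap, by −0.33 at 6 hpi and −0.40 at 12 hpi (limma, adjusted p = 0.607 and 0.364). ENSBTAG00000033662-AS1 was below 0 h without overlap at 6 hpi, by −0.31 (adjusted p = 0.6385).

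Few lncRNAs of the whole table carry the symbol of a host gene of inflammation, and lncRNAs listed by an identifier alone could not be matched. Of 28 symbols of TLR4 and NF-kB signalling, 1 named a tested lncRNA, IRAK3-OT1 at 0.748 FPKM, and it is not a member. Of 23 cytokine, chemokine and acute phase symbols 0 did. Of 36 symbols of cytoskeleton, adhesion and matrix 2 did (COL4A1-OT1 at 0.944 and COL4A2-OT1 at 1.79 FPKM), and of 19 heat shock and stress symbols 1 did (SQSTM1-OT1 at 0.562). Symbols beginning as those of ribosomal proteins and translation factors named 3 tested lncRNAs, of which the transcript of EEF1AKMT1 is a member. On each of these lists 0 tested lncRNAs passed the thresholds in any comparison.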

How the data were processed

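RNA of 9 libraries of MAC-T cells was sequenced after depletion of ribosomal RNA. According to the methods of the study, reads were mapped with Hisat2, transcripts were merged with Cuffmerge, lncRNAs with at least 2 exons were kept by FPKM and lack of coding potential, and levels were made with StringTie. The submitters' processing notes name HISAT2, Cuffdiff 2.1.1, DESeq 1.10.1 and ARS-UCD1.2. The values are FPKM as deposited by the authors, without read counts; the study lists the mapped reads of each library. The lncRNA table that holds all 9 libraries was used, and its columns were the same as in the 8 other tables. The circRNA tables give no positions and were not used. 0 other columns of per-sample values were found.

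LncRNAs above 0.5 FPKM in at least 3 of 9 libraries were fitted on log2(FPKM + 0.1) with limma 3.58.1 (R 4.3.3), with a trend and all 9 libraries, and p was adjusted within each comparison. The fit was tested on simulated data. FPKM of all lncRNA transcripts of a gene were also summed and refitted. Replicate numbers did not pair libraries. The members and lists were chosen with earlier results of these data known. Members named are the 10 highest, those past the thresholds or, where a direction of a comparison had none, the 3 with the smallest p, the 3 on each side of the limit of 10 FPKM, the 5 highest by the ratio of the highest to the median library, the 5 with the smallest SD, those on a gene list and those of shared genes. The other members with an unadjusted p under 0.05, and the rest, were named after their values had been seen. Alternatives were pseudocounts of 0.05, 0.5 and 1, no filter, centred or quantile-normalized values, no trend, only the 6 libraries compared, a replicate block, sums per gene, each library left out, and members by median FPKM above 10 or mean FPKM above 20.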

Additional observations from a re-analysis of the deposited data

How the results depend on the processing

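The number of abundant lncRNAs past the thresholds was small and moved with the processing. At 6 hpi against 0 h it was 1, and 0 with a pseudocount of 0.5 or 1, with centred or quantile-normalized values, with sums per gene and among members above 20 FPKM. At 12 hpi against 0 h it was 3, then 5 with quantile normalization, 1 with sums per gene and 0 among members above 20 FPKM. At 12 against 6 hpi it was 0, and 1 with centred values. Leaving out 1 library gave 0 to 3, 0 to 8 and 0 to 1 in the 3 comparisons. The share of all tested lncRNAs past the thresholds is given above for the main fit only, not for these settings. Leaving out 0 h replicates 1 and 2 together, a choice made after seeing the data, gave 0 in both comparisons with 0 h. The cause was not tested. With the replicate number as a block the counts stayed at 1, 3 and 0, 3 of the 34 calls at an unadjusted p under 0.05 were lost (LINC674 at 6 hpi against 0 h, LINC667 and ENSBTAT00000066404 at 12 against 6 hpi), and same-numbered libraries correlated best in only 3 of 18 combinations, with correlations of deviations from −0.0754 to 0.0728. Of the 34 calls at an unadjusted p under 0.05, 16 were kept without each library in turn, 18 without a trend, 25 with centred values and 10 without 0 h replicates 1 and 2.

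Changes of sign at 12 hpi against 0 h are listed here only for members whose change is given above. Other members also changed sign, such as LINC992 (0.12 in the main fit) with centred values, which moved every change by −0.13. Among the calls, the sign changed for ENSBTAG00000050597-OT1 (−0.35 with quantile normalization) and LINC667 (0.25 with sums per gene). The others were ENSBTAT00000084269 (0.049 without 0 h replicates 1 and 2, and −0.19 to 0.052 with 1 library left out), ENSBTAT00000077726 (−0.016 centred, −0.29 with quantile normalization, −0.24 without 0 h replicates 1 and 2, and −0.016 to 0.30 with 1 library left out), LINC1525 (−0.031 centred, −0.48 with quantile normalization, and −0.058 to 0.22 with 1 library left out), ENSBTAT00000020417 (−0.0066 to 0.50 with 1 library left out), LINC674 (−0.22 without 0 h replicates 1 and 2), and, with centred values, ENSBTAG00000048620-OT1 (−0.079) and TMEM167A-OT1 (−0.056). The signed medians over the members and the median spread between replicates moved by less than that spread under the alternatives run for them. That spread is one of single members, however, and not of a median over them. At 12 hpi against 0 h the signed median of the members (0.08 in the main fit) changed sign with centred values. There are 3 libraries a group, and the counting error of single members was not estimated, since the table gives no read counts.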
